A study of Mus musculus with 36 samples.

Results

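Kidneys of mice fed a protein-free diet for 3 days were compared directly with kidneys of mice fed a carbohydrate-free (CHO-free) diet for 3 days. The rule took the samples by their labelled diet: 5 protein-free arrays (mice TS49, TS50, TS51, TS52 and TS54) against 5 CHO-free arrays (mice TS31, TS32, TS34, TS35 and TS36), which is 10 of the 36 arrays of the series, with no control array in the contrast. All were male C57BL/6 mice of 10 to 12 weeks, wild type as far as the labels go, that had eaten SDS chow (a standard laboratory chow) for 7 days and then their test diet ad libitum, and the kidneys were taken with no ischemia. The protein-free diet drew its energy mostly from carbohydrate and the CHO-free diet mostly from casein, a milk protein, at the same fat content. The contrast thus sets absence of protein against absence of carbohydrate and plenty of protein at once. The paper also reports a loss of body weight and a lower energy intake, not significant against the control diet, on the protein-free diet. It describes lower food intake and body weight on the CHO-free diet too, given there for longer than 3 days. Food intake and weight are not in the labels of these arrays, and their part in the differences was not tested. Mice were housed 3 to 4 per cage and the cages are not given, so the p-values measure the spread between mice that may share a cage. The fit also held 17 other arrays, which share the estimate of the spread. They were 5 of the Control diet, 4 of the fat-free diet, 3 of SDS chow and 5 of 30%DR (chow reduced by 30%). That restriction lasted longer than the 3 days of the test diets. The paper describes the restricted mice as a separate cohort with their own chow controls. Whole kidney RNA was measured, so fewer cells of a type and less RNA per cell cannot be told apart.

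Both diets change what the kidney has to do. Dietary protein brings nitrogen and acid, which the proximal tubule answers by taking up glutamine and releasing ammonia and the collecting duct by secreting acid, while the kidney also returns filtered amino acids to the blood. Without carbohydrate the liver and the kidney make glucose from amino acids, and insulin is low. Vitamin D breakdown, phosphate recovery and sterol synthesis are likewise known to respond to food.

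Of 45141 probe sets, 1101 (2.44%) were differentially expressed (DEPS: adjusted p under 0.05 over all probe sets and a change of at least 1.5-fold), 606 (1.34%) higher on the protein-free and 495 (1.10%) higher on the CHO-free diet. These DEPS carry 429 genes named as higher on the protein-free diet and 330 as higher on the CHO-free diet, and 0 genes appeared in both directions. A further 232 DEPS have no gene symbol in the annotation used here. At least 2-fold differences were found in 110 DEPS higher on the protein-free diet and 94 higher on the CHO-free diet. All 5 arrays of one diet lay above or below all 5 of the other in 2595 probe sets (5.75%, 2.64% with the protein-free arrays above and 3.11% below), of which 774 were DEPS. Counted by 1 probe set per gene, the brightest, 619 of 17097 genes were called (3.62%), 1.92% higher on the protein-free and 1.70% higher on the CHO-free diet. The median log2 difference over all probe sets, protein-free minus CHO-free as in every difference below, was -0.02.

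**Figure D1:**
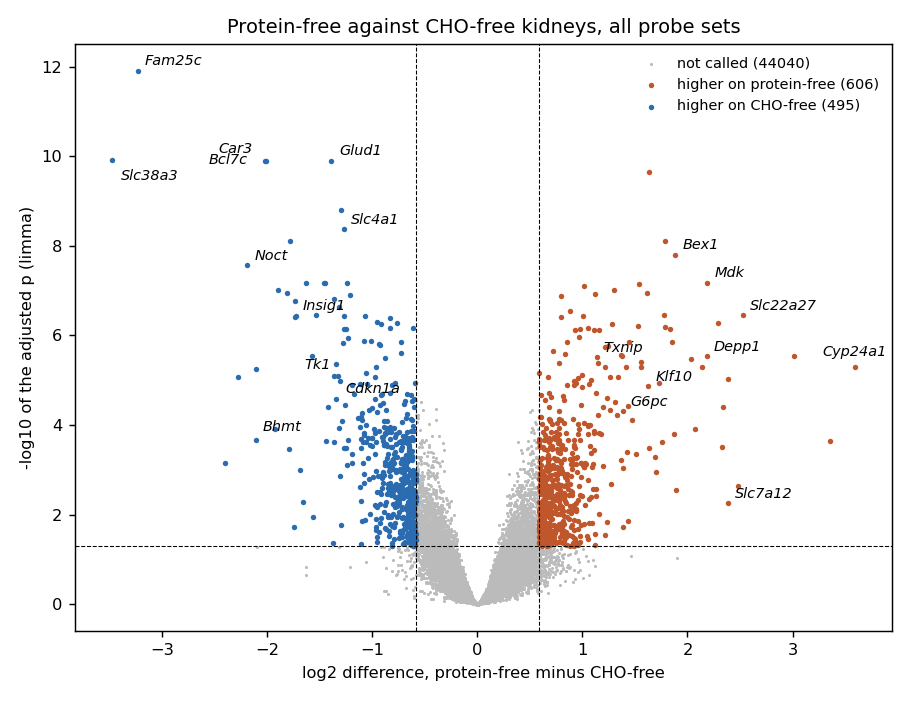
Each point is 1 of 45141 probe sets, with its log2 difference (protein-free minus CHO-free) on the x axis and -log10 of limma's adjusted p on the y axis. Dashed lines mark an adjusted p of 0.05 and a change of 1.5-fold, and the 606 DEPS higher on the protein-free diet lie to the right of the 495 higher on the CHO-free diet, with Cyp24a1 and Slc38a3 at the far ends.

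RNA quality differed between mice. The 3' minus 5' log2 difference of the Gapdh control probe sets, which grows as RNA breaks down, was 0.74 to 2.19 in the protein-free and 0.98 to 2.45 in the CHO-free arrays (two-sided exact permutation test, p = 0.222), against 0.65 to 0.96 in the Control arrays. CHO-free mice TS34 and TS35 had the highest values, 2.45 each, and TS32 the lowest of its diet. That mouse TS32 also lay nearest to the protein-free mean in 51% of the DEPS, where the other 4 CHO-free mice did so in 9.72% to 17%. Without TS32 there were 1745 DEPS (1036 higher on the protein-free and 709 on the CHO-free diet), without TS34 and TS35 there were 758 (345 and 413), and with the Gapdh difference as a covariate 846 (412 and 434). Where leaving out TS34 and TS35 or the Gapdh covariate ended the call of a gene named below, this is said beside it. The part of RNA quality in them was not tested. Kidney markers were present on every array: the mean log2 signal of 12 proximal tubule markers was 11.61 to 11.78 on the protein-free and 11.50 to 11.62 on the CHO-free diet.

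The gene furthest apart toward the CHO-free diet was Slc38a3, the glutamine transporter of the proximal tubule that brings in glutamine for ammonia production. Its log2 signal was 6.76, 6.52, 6.56, 7.04 and 5.96 in the protein-free mice and 10.44, 9.44, 10.11, 10.02 and 10.19 in the CHO-free mice. The groups stood apart by more than the range within either, and the difference was -3.47 (SE 0.22, adjusted p = 1.2e-10), 11.1-fold higher on the CHO-free diet. The Control arrays, at 5.49 to 6.52, lay near the protein-free ones. Glutamate dehydrogenase (Glud1), which frees ammonia from glutamate, read 11.14, 11.02, 11.08, 11.25 and 10.91 on the protein-free and 12.44, 12.47, 12.19, 12.59 and 12.69 on the CHO-free diet. It too had no overlap, with a difference of -1.40 (SE 0.09, adjusted p = 1.25e-10), and its second probe set differed by -1.24.

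Over the 18 measured genes of ammonia and urea handling, 5 were higher on the CHO-free diet and 1 on the protein-free diet, with a median difference of -0.29 against -0.01 over all genes. Besides Slc38a3 and Glud1, the genes higher on the CHO-free diet were Slc14a2, the urea transporter of the inner medulla (-1.29), alanine aminotransferase Gpt (-0.65) and the mitochondrial dicarboxylate carrier Slc25a10 (-0.59). The call of Slc14a2 ended without TS34 and TS35 (-0.83, adjusted p = 0.25). Slc25a10, named after its value was seen, lost its call in that setting (-0.50, adjusted p = 0.109) and with the Gapdh covariate (-0.51, under the fold minimum). The ammonia transporters Rhcg (-0.57, adjusted p = 0.032) and Rhbg (-0.43, adjusted p = 0.132) missed the fold minimum or the false discovery rate, although the diets did not overlap in either. The gene higher on the protein-free diet was Slc7a7, the basolateral exchanger that lets arginine and lysine out of the tubule cell. It read 9.23 to 10.23 on the protein-free and 7.95 to 8.55 on the CHO-free diet, 2.94-fold higher on the former (1.56, SE 0.19, adjusted p = 5.13e-06). The brightest probe set of Pck1, which starts glucose formation from amino acid carbon, was dim. Its means were 3.54 on the protein-free and 2.96 on the CHO-free diet, under the array medians of 3.70 to 3.76. At this level the probe set may not report the gene. Its difference of 0.58 stayed just under the fold minimum, which it passed with the Gapdh covariate (0.62) and without TS34 and TS35 (0.59).

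The called methionine and one-carbon genes were likewise higher on the CHO-free diet. Of 16 measured, 3 were called, 2 had a difference above 0, and the median was -0.24. Betaine-homocysteine methyltransferase (Bhmt), which remakes methionine, read 5.74, 4.60, 4.03, 5.26 and 4.88 on the protein-free and 6.76, 6.31, 7.45, 6.33 and 8.19 on the CHO-free diet. These values spread widely within each diet but did not overlap, with a difference of -2.11 (SE 0.34, adjusted p = 0.000218), and Control arrays lay at 4.86 to 5.55. Pyridoxal kinase Pdxk, which makes the vitamin B6 cofactor (-0.70), and the folate enzyme Aldh1l1 (-0.63) were the others, and with the Gapdh covariate, or without TS34 and TS35, the count of called members was 5, with Shmt2 and Suox added. Among 36 enzymes that break down amino acids, 2 were higher on the CHO-free diet, the glycine and sarcosine enzymes Gldc (-0.80) and Sardh (-0.75), and 3 on the protein-free diet, Ddc (0.82), the kynurenine enzyme Kmo (0.68) and D-aspartate oxidase Ddo (0.61). Ddc, which makes dopamine in the tubule, lost its call with the Gapdh covariate (0.56) and without TS34 and TS35 (0.49).

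Of 20 amino acid transporters of the tubule, 4 were higher on the protein-free diet and 1 on the CHO-free diet, with a median of 0.18. Slc7a9, the brush border carrier of cystine and dibasic amino acids, read 10.49 to 10.79 on the protein-free and 9.69 to 9.96 on the CHO-free diet (0.85, SE 0.10, adjusted p = 1.4e-06). Slc6a19, the main carrier of neutral amino acids, was higher by 0.71 and Slc7a13, a partner of the aspartate and cystine uptake system, by 0.76. A second, dimmer probe set of Slc7a13 had -0.76 and did not pass (adjusted p = 0.213). Slc43a2, which exports large neutral amino acids, differed by -0.80 in the other direction. Without TS34 and TS35 the list held 2 calls higher on the protein-free diet and 0 on the CHO-free diet, and Slc7a13 (0.53) and Slc43a2 (-0.65) had lost theirs. Slc7a12, an amino acid transporter that is also one of the androgen-responsive kidney genes, read 8.16, 7.44, 6.59, 6.80 and 7.54 on the protein-free and 5.26, 6.36, 4.37, 4.11 and 4.50 on the CHO-free diet. Its lowest protein-free mouse lay just above CHO-free mouse TS32 (2.39, SE 0.53, adjusted p = 0.00554), and without TS34 and TS35 it had 1.93 with an adjusted p of 0.0883.

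Of 25 genes of ATF4 and the response to amino acid shortage, 1 was higher on the protein-free and 2 on the CHO-free diet, with a median of -0.14. Asparagine synthetase (Asns), the best known ATF4 target, differed by -0.14 (SE 0.23, adjusted p = 0.811), Trib3 by -0.14 and Atf4 itself by -0.28 (adjusted p = 0.0332, under the fold minimum). Sestrin 2 (Sesn2), a leucine sensor that holds back mTORC1, was the gene higher on the protein-free diet (0.60, SE 0.17, adjusted p = 0.0279). The other called members were Ddit4, which also restrains mTORC1 (-1.11, SE 0.24, adjusted p = 0.0051), and Ddit3, the stress factor CHOP (-0.68). Ddit4 lay at 5.53 to 6.13 on the protein-free and 6.49 to 7.51 on the CHO-free diet, with the Control arrays at 6.25 to 7.93. The call of Ddit3 ended without TS34 and TS35 (-0.55, adjusted p = 0.144).

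Genes of glucose handling were called in both directions. Of 9 measured gluconeogenesis genes, with a median of 0.11, 2 were called, both higher on the protein-free diet. They were glucose-6-phosphatase (G6pc), the last step of glucose release, and the muscle-type fructose bisphosphatase Fbp2. G6pc read 10.44, 10.91, 10.82, 10.92 and 11.37 on the protein-free and 9.70, 9.78, 9.01, 9.86 and 9.17 on the CHO-free diet, without overlap (1.39, SE 0.20, adjusted p = 4.94e-05). Its Control arrays, 10.40 to 11.26, overlapped the protein-free ones. Fbp2 was 2.57-fold higher on the protein-free diet, while the more abundant Fbp1 differed by 0.19 and Pck2 by 0.11, neither past the test. Of 26 genes of glycolysis and carbohydrate use, 3 were higher on the protein-free and 2 on the CHO-free diet. In this list 12 genes had a difference above 0, and the median was -0.02.

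Txnip, a brake on glucose uptake whose gene answers to glucose, read 10.72, 11.13, 10.79, 11.03 and 10.85 on the protein-free and 9.68, 10.07, 9.70, 9.76 and 9.63 on the CHO-free diet. The diets stood apart by 1.14 (SE 0.13, adjusted p = 3.08e-06), with the Control arrays at 9.76 to 10.20 beside the CHO-free ones, and a second probe set had 1.76. The sugar transporters Slc2a5, for fructose (0.70), and Slc2a2, which lets glucose out of the tubule cell (0.59), were higher on the protein-free diet. Neither was called without TS34 and TS35 (0.55 and 0.52), and Slc2a2 fell under the fold minimum with the Gapdh covariate (0.54). Transketolase (Tkt) of the pentose phosphate route, at -0.92, and the pyruvate kinase Pkm, at -0.78, were higher on the CHO-free diet.

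Fat burning and ketone formation were represented by 25 measured genes, of which 5 were called, all higher on the protein-free diet, with a median difference of 0.13. Pdk4, which keeps pyruvate out of the mitochondrial cycle, read 8.82, 9.39, 9.09, 9.03 and 8.04 on the protein-free and 7.37, 8.37, 7.59, 6.36 and 6.21 on the CHO-free diet. The groups overlapped through TS54 and TS32, at a difference of 1.69 (SE 0.30, adjusted p = 0.000522), and Control arrays lay at 6.83 to 7.56. The peroxisomal enzyme Ehhadh (0.86), the lipoprotein lipase inhibitor Angptl4 (1.12) and the acyl-CoA thioesterases Acot1 (1.08) and Acot2 (1.12) were the others, all known targets of the fatty acid sensor PPARα. Ppara itself differed by -0.20, Cpt1a by 0.43 and Acadm by 0.07, none called. Other known targets in the list were not called either: Cyp4a10 (-0.09), Acaa1b (0.02), Plin2 (-0.09), Cpt2 (-0.07), Slc25a20 (0.16) and Vnn1 (0.20). With the Gapdh covariate 3 of the 5 stayed called, and Angptl4 (1.14, adjusted p = 0.0765) and Acot2 (0.67) did not. Without TS34 and TS35, Pdk4 and Ehhadh stayed called, and Acot1 (0.81), Acot2 (0.63) and Angptl4 (1.08) did not, while Acot3 was called in the other direction (-0.62, against -0.36 over all arrays). Of 14 fatty acid synthesis genes 0 were called, with Fasn at -0.19 (SE 0.34) and Scd1 at 0.21 (SE 0.26), both varying widely among the protein-free mice.

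Of 19 measured genes of cholesterol synthesis, 6 were higher on the CHO-free diet and 0 on the protein-free diet, 2 had a difference above 0, and the median was -0.34. Insig1, which holds the sterol sensor in the endoplasmic reticulum and is itself switched on by the sterol factor SREBP, read 7.22, 6.36, 7.23, 7.23 and 6.94 on the protein-free and 8.86, 8.40, 8.73, 8.44 and 9.20 on the CHO-free diet. Control arrays (6.93 to 7.48) sat with the protein-free ones, and the diets differed by -1.73 (SE 0.18, adjusted p = 3.63e-07). The other called members were enzymes of the steps from lanosterol to cholesterol, Msmo1 (-0.97), Nsdhl (-0.91), Dhcr7 (-0.89), Tm7sf2 (-0.69) and Ebp (-0.68, named after its value was seen), and among the first 4 of these only Dhcr7 overlapped between the diets, through CHO-free mouse TS32. Of the same steps, Cyp51 (0.09, adjusted p = 0.724), Sc5d (0.01, adjusted p = 0.988) and Hsd17b7 (-0.36, adjusted p = 0.182) did not pass. Nor did the earlier enzymes Hmgcs1 (-0.51, adjusted p = 0.125), Mvd (-0.67, adjusted p = 0.0564) and Sqle (-0.13). The count was 6 without TS34 and TS35 and 7 with the Gapdh covariate, which added Fdps (-0.77).

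The promoters of the 6 called sterol genes are shown to let their sequences be compared, from the RefSeq promoter windows of build GRCm38, 250 bases before each gene's start, 5′ to 3′ on the gene's strand. Capitals in Insig1 (chr5:28071162-28071411, + strand) mark an E-box (CACGTG, at -101 from the start) and a CCAAT box (CCAAT or its reverse complement ATTGG, at -216).
Insig1: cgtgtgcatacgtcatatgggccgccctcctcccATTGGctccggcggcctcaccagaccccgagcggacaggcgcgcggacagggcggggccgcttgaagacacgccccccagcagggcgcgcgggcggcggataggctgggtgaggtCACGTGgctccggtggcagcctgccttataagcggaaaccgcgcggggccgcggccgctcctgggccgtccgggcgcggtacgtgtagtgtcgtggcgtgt
The 6 called sterol genes each hold a CCAAT box in this window, as do the other 9 of the list that have a promoter there but were not called, against 37.5% of the 27025 genes of the promoter table. The lines below give, for each called gene, 36 bases around the box nearest to the start, with the box in capitals, at chr5:28071181-28071216 (+) for Insig1, chr8:64733613-64733648 (-) for Msmo1, chrX:72918485-72918520 (+) for Nsdhl, chr7:143830150-143830185 (+) for Dhcr7, chr19:6067877-6067912 (-) for Tm7sf2 and chrX:8193547-8193582 (-) for Ebp.
Insig1: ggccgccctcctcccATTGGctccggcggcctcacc
Msmo1: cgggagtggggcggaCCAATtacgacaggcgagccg
Nsdhl: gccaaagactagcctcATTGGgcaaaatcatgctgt
Dhcr7: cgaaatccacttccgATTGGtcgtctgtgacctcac
Tm7sf2: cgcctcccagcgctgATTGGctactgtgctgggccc
Ebp: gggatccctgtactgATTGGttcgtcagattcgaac
A match in these letters is a description and not a bound site. The CCAAT box was chosen for the search after the values were seen.

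Of 31 measured cell cycle genes, 7 were higher on the CHO-free diet and 0 on the protein-free diet, with a median of -0.21, and with the Gapdh covariate the count was 10. Thymidine kinase (Tk1), which feeds DNA synthesis, read 3.05, 3.43, 3.28, 2.84 and 3.50 on the protein-free and 5.02, 4.85, 4.20, 4.18 and 4.69 on the CHO-free diet. These are dim signals that did not overlap (-1.37, SE 0.17, adjusted p = 8.06e-06), and the Control arrays, 3.92 to 4.49, lay between and partly among the CHO-free ones. The other called members were Rrm2, the ribonucleotide reductase subunit of dividing cells (-1.09), the mitotic kinase Cdk1 (-1.08), the proliferation marker Mki67 (-0.99), topoisomerase Top2a (-0.98), cyclin Ccna2 (-0.81) and Ube2c (-0.62). These were dim too, with protein-free means from 2.91 (Top2a) to 3.58 (Ccna2). Further dim probe sets of Rrm2 (-0.17) and Top2a (-0.12 and -0.09) were not called. In Mki67 the protein-free arrays lay at 3.08 to 3.56, the CHO-free arrays at 3.86 to 4.68 and the Control arrays at 4.21 to 5.18. Mcm6 (0.40), Pcna (0.05) and Ccnd1 (-0.14) were not called. Cdkn1a, which encodes the cell cycle inhibitor p21, was also lower on the protein-free diet, at 4.46 to 4.99 against 5.66 to 6.44 on the CHO-free diet (-1.33, SE 0.17, adjusted p = 8.22e-06). Its second, dim probe set had -0.44 and did not pass.

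Promoters of 6 called cell cycle genes were in the table, and 5 of them hold a CCAAT box, as do 16 of the 20 promoters of members not called (80%) and 37.5% of all genes. The cell cycle homology letters TTTGAA were found in 4 of the 6, in 5 of the 20 promoters of members not called and in 18.3% of all genes, again a search chosen after the values were seen. Capitals mark the CCAAT box nearest to the start, at chr12:24708189-24708224 (+) for Rrm2, chr10:69352940-69352975 (-) for Cdk1, chr7:135716500-135716535 (-) for Mki67, chr11:99024227-99024262 (-) for Top2a and chr2:164769857-164769892 (+) for Ube2c.
Rrm2: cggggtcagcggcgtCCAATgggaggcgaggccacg
Cdk1: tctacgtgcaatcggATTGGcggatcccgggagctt
Mki67: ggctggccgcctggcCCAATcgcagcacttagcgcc
Top2a: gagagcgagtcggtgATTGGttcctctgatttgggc
Ube2c: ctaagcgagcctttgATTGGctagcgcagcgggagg

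**Figure D2:**
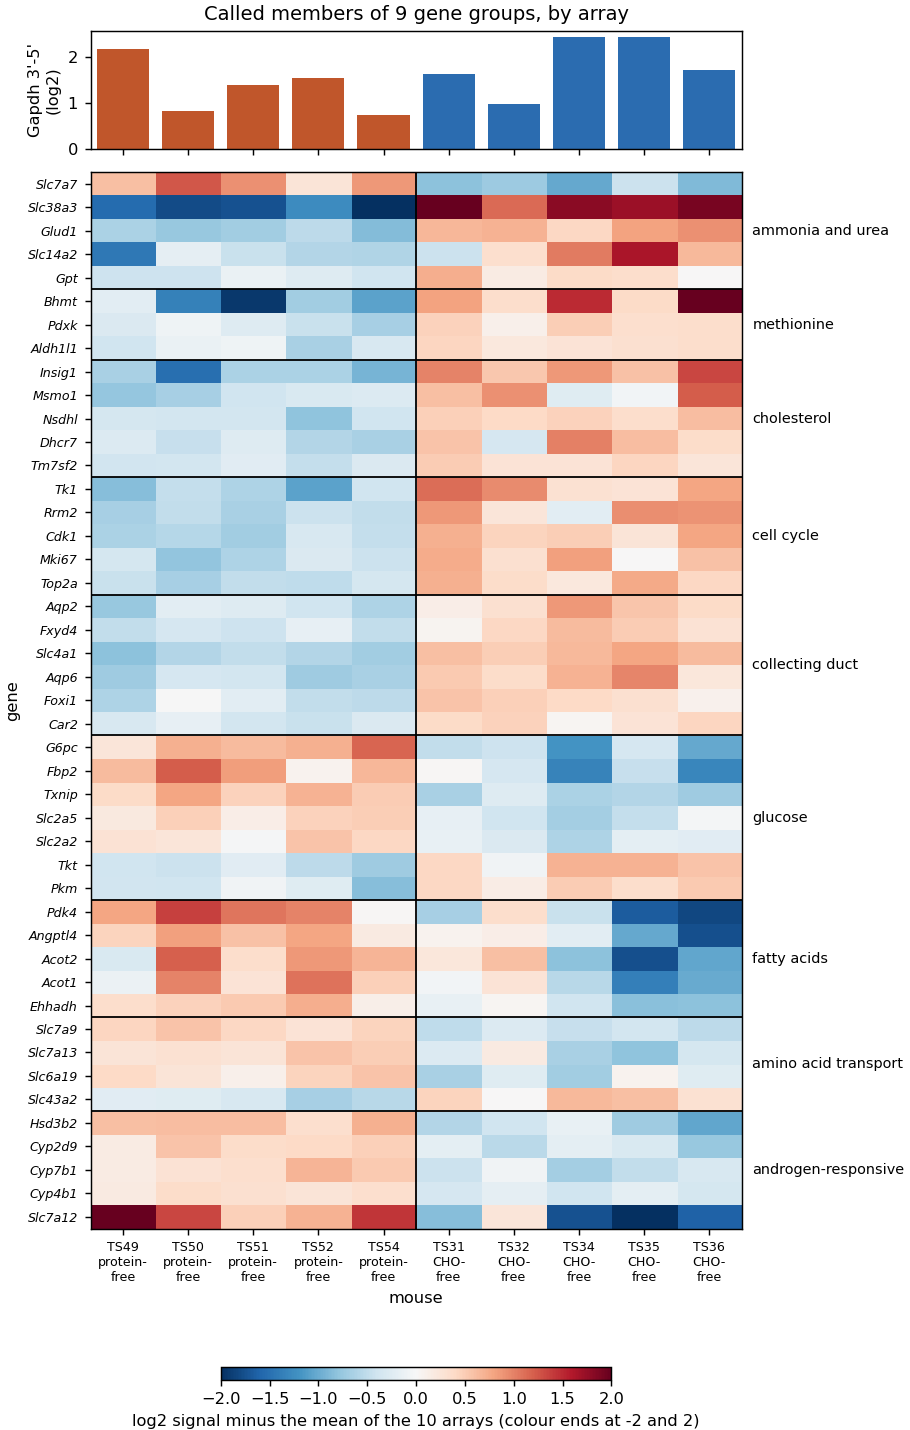
Rows are 45 called genes of 9 groups and columns the 10 mice, coloured by log2 signal minus the mean of the 10 arrays. Bars on top give the Gapdh 3' minus 5' difference of each mouse, highest in TS34 and TS35 (2.45). For Pdk4 (8.37), Acot1 and Acot2, CHO-free mouse TS32 has the colours nearest to those of the protein-free mice.

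The largest difference of the contrast was in Cyp24a1, the enzyme that breaks down active vitamin D. Its brighter probe set read 10.86, 11.12, 9.88, 10.70 and 10.27 on the protein-free and 5.73, 6.73, 5.64, 8.52 and 8.24 on the CHO-free diet. The protein-free arrays were all higher, by 3.60 on average (SE 0.44, adjusted p = 5.13e-06, 12.1-fold), though the CHO-free mice spread over more than 2 log2 units, and Control arrays (7.49 to 8.88) fell between the means. The second probe set gave 1.85 (SE 0.21). Of 20 genes of phosphate, calcium and vitamin D, 3 were higher on the protein-free and 1 on the CHO-free diet, and the median was -0.04. Slc34a3, a brush border phosphate carrier, was 2.49-fold higher on the protein-free diet, at 7.33 to 7.94 against 6.12 to 6.72. The calcium exchanger Slc8a1 had 0.76, a call lost without TS34 and TS35 (0.54). The phosphate carrier Slc20a1 had -0.72. The vitamin D receptor Vdr (0.21), the activating enzyme Cyp27b1 (-0.30, dim) and the FGF23 co-receptor klotho (Kl, 0.32, adjusted p = 0.0322) were not called.

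Depp1, a target of the FOXO factors that insulin keeps out of the nucleus, was 4.54-fold higher on the protein-free diet. It read 7.12, 7.64, 7.86, 8.33 and 7.77 there and 5.13, 5.33, 5.22, 6.10 and 6.02 on the CHO-free diet, with Control arrays at 4.90 to 6.11, around the CHO-free ones (2.18, SE 0.26, adjusted p = 2.91e-06). Of the 25 genes of p21, FOXO and growth arrest, 2 were higher on the protein-free and 2 on the CHO-free diet, and the median was -0.04. Igfbp3 (0.70) and the clock gene Per1 (-0.72) were not called with the Gapdh covariate, at differences of 0.74 (adjusted p = 0.0553) and -0.67 (adjusted p = 0.0747), nor without TS34 and TS35, at 0.75 (adjusted p = 0.126) and -0.59 (adjusted p = 0.222). Klf10, a growth-restraining zinc finger factor, was the 1 immediate early gene of 21 called, 4.76% of that list against 3.62% of all genes. It differed by 1.63 (SE 0.21, adjusted p = 1.36e-05), at 6.71 to 7.10 on the protein-free and 5.07 to 5.56 on the CHO-free diet. Of 18 clock genes, 1 was higher on the protein-free diet (Rora, 0.66) and 2 on the CHO-free diet (Per1 and Ciart, -0.69), and 0 of them were called without TS34 and TS35 (Rora 0.44, Ciart -0.62). Another Rora probe set, nearly as bright, differed by 0.11 (7.60 against 7.48), and a dimmer one by 0.71 (adjusted p = 0.0679), neither called. With the Gapdh covariate Rora (0.54) and Ciart (-0.71, adjusted p = 0.0646) were not called either, and Per3 was (0.64).

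The FOXO element (GTAAACA on either strand) was found in 1 of the 20 promoters at hand among the 30 genes with the largest differences, that of Ugt2b37, against 3.54% of all genes. The E-box was found in 4 of the 20 (Npl, Insig1, Bcl7c and 2810408I11Rik) against 6.86%, and the C/EBP-ATF element (TGATGNAA) in 0 against 3.91%. Of the 5 promoters of called genes of glycolysis and carbohydrate use, 1 held the FOXO letters, against 0 of 20 for members not called and 0 of 9 for gluconeogenesis. The promoter of that gene, Txnip (chr3:96557707-96557956, + strand), has them at -121, between CCAAT boxes at -137 and -102, all in capitals here.
Txnip: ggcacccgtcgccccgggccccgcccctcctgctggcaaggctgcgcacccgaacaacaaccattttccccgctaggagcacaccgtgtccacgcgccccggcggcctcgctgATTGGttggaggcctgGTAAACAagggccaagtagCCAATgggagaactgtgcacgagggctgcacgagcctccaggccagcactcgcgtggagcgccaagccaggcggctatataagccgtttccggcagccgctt
No match says only that the letters are not in this window.

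**Figure D3:**
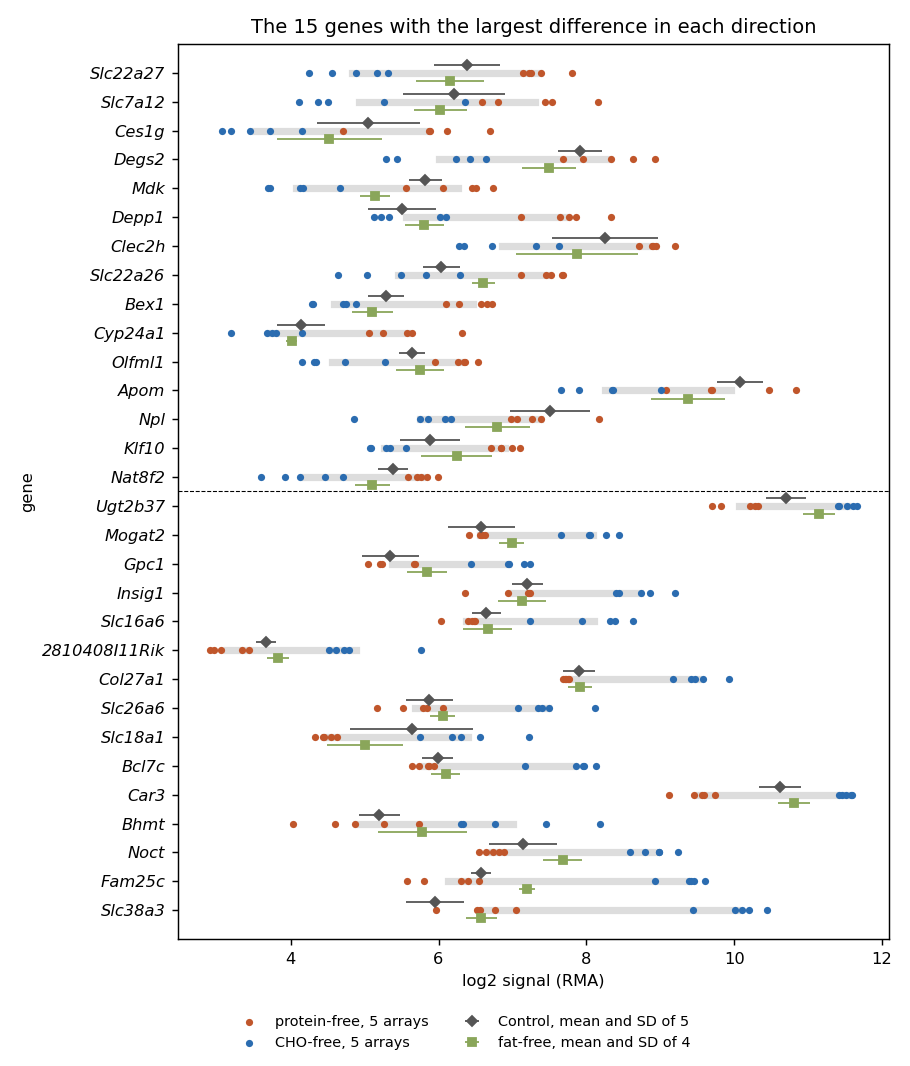
Log2 signal (x axis) of the 15 genes with the largest difference in each direction among DEPS whose groups do not overlap, with 1 point per mouse and the Control and fat-free groups as means with SD. Cyp24a1 is drawn by its dimmer probe set, the one with the lower p. Genes higher on the CHO-free diet are below the dashed line. The Control mean lay between the diets, nearer to protein-free, in 11 of these 15 and in 8 of the 15 above the line.

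Among the genes highest on the protein-free diet, Slc22a27, an organic anion transporter, lay at 7.15 to 7.80 against 4.25 to 5.32 (2.53, SE 0.26, adjusted p = 3.58e-07), and its relative Slc22a26 at 7.12 to 7.69 against 4.63 to 6.29 (2.04). These genes and Slc22a19 (0.66) are close paralogs whose probes may share signal. Of 22 organic ion transporters 4 were higher on the protein-free diet and 0 on the CHO-free diet, with Slc22a5, which carries carnitine (0.68), and Slco4c1 (0.68) beside them. The carboxylesterase Ces1g (2.34), the sphingolipid enzyme Degs2 (2.29) and the sialic acid enzyme Npl (1.63) followed, with Apom (1.70), the lipoprotein carrier of sphingosine phosphate. Apom was highest in the Control arrays, with a mean of 10.08 against 9.96 and 8.25. Midkine (Mdk), a heparin-binding growth factor, lay at 5.56 to 6.73 against 3.70 to 4.67 (2.19, SE 0.20, adjusted p = 6.61e-08). The lectin Clec2h (2.07), Bex1 (1.88), Olfml1 (1.73) and the acetyltransferase relative Nat8f2 (1.61) complete the 15.

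Of 17 genes listed as androgen-responsive in mouse kidney, 5 were higher on the protein-free diet and 0 on the CHO-free diet, with a median of 0.35. The list does not separate genes that androgen raises from those it lowers, and the part of androgen was not tested. The 5 called genes are Slc7a12, the steroid enzymes Hsd3b2 (1.15) and Cyp7b1 (0.79), and the P450 enzymes Cyp2d9 (0.80) and Cyp4b1 (0.59). Hsd3b2 lay at 9.66 to 10.04 on the protein-free, 8.29 to 9.18 on the CHO-free and 9.81 to 10.36 on the Control diet. Kap, the most abundant androgen-responsive transcript of the kidney, differed by 0.13 and did not pass, and Odc1 had -0.60 (adjusted p = 0.0561). The count was 4 with the Gapdh covariate, where Cyp4b1 (0.58) fell under the fold minimum, and 3 without TS34 and TS35, where Cyp4b1 and Slc7a12 were not called. Of 16 P450 genes, a list that shares Cyp2d9, Cyp2e1 and Cyp2j13 with the androgen-responsive one, 2 were higher on the protein-free diet, Cyp2d26 by 1.33 and Cyp2d9.

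Among the other genes highest on the CHO-free diet, Fam25c lay furthest out. It read 6.30, 5.58, 6.40, 6.54 and 5.81 on the protein-free and 9.41, 8.93, 9.38, 9.46 and 9.60 on the CHO-free diet, 9.39-fold apart (-3.23, SE 0.17, adjusted p = 1.22e-12, the lowest of all probe sets). Nocturnin (Noct), whose transcript cycles over the day and which acts on lipid metabolism, read 6.74, 6.89, 6.82, 6.54 and 6.65 against 8.80, 8.98, 8.60, 8.98 and 9.24. Noct was tight within each diet (SD 0.14 and 0.24) and differed by -2.19 (SE 0.19, adjusted p = 2.73e-08), while Fam25c spread more on the protein-free diet (SD 0.41). The carbonic anhydrase Car3 lay at 9.11 to 9.74 against 11.42 to 11.60 (-2.02), with Control arrays between, at 10.27 to 11.02. Car3 is also a marker of fat cells. The mean over 10 fat cell markers was 4.59 to 6.80 on the protein-free and 5.47 to 5.70 on the CHO-free diet, and the other 9 were not called.

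The oxalate and chloride exchanger Slc26a6 lay at 5.17 to 6.06 against 7.08 to 8.12 (-1.81, SE 0.17, adjusted p = 1.13e-07), and the monocarboxylate carrier relative Slc16a6 at 6.03 to 6.49 against 7.24 to 8.63 (-1.73). The vesicular amine transporter Slc18a1 had -1.93 on the called probe set and -0.57 on a brighter one, under the fold minimum. The chromatin remodelling subunit Bcl7c had -2.01 (a second, dim probe set -0.29), the collagen Col27a1 -1.78, the unnamed locus 2810408I11Rik -1.74, the heparan sulfate proteoglycan Gpc1 -1.58, the acylglycerol enzyme Mogat2 -1.53 and the glucuronosyltransferase Ugt2b37 -1.46. In all of these the groups did not overlap, which was part of the rule by which they are named. Over all 1101 DEPS, the Control mean lay between the diets, nearer to the protein-free mean in 518 (47%) and nearer to the CHO-free mean in 216 (19.6%). It lay above both in 231 (21%), of which 208 were higher on the protein-free diet. In 136 (12.4%) it lay below both, and 109 of these were higher on the CHO-free diet. Over all probe sets 19.3% and 14% lay between. These shares are no fitting background, because DEPS were picked for a wide gap, in which another mean falls more often. The Control arrays entered neither side of the contrast. Their Gapdh 3' minus 5' difference was 0.65 to 0.96, against 0.74 to 2.19 on the protein-free and 0.98 to 2.45 on the CHO-free diet. The part of RNA quality in the place of the Control mean was not tested.

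Of 10 intercalated cell markers, 4 were called, all higher on the CHO-free diet, with a median of -0.50. Slc4a1, the bicarbonate exchanger of the acid-secreting cell (also of red cells), read 7.50, 7.73, 7.82, 7.73 and 7.63 on the protein-free and 8.91, 8.80, 8.97, 9.11 and 8.95 on the CHO-free diet. The diets stood apart by -1.27 (SE 0.10, adjusted p = 4.22e-09), with Control arrays at 7.56 to 8.17. The vesicle channel Aqp6 (-1.11), the cell's master factor Foxi1 (-0.74) and carbonic anhydrase Car2 (-0.63) were the others, and the count of 4 was the same with the Gapdh covariate and without TS34 and TS35. Slc26a4, the marker of base-secreting cells, went the other way (0.44, adjusted p = 0.0242, under the fold minimum), and the proton pump subunit Atp6v1b1 (0.10) was not called.

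Of 9 principal cell markers 2 were called, the water channel Aqp2 (-0.90, SE 0.14, adjusted p = 0.000187) and Fxyd4, a sodium pump regulator (-0.76). Aqp2 lay at 7.26 to 7.81 on the protein-free and 8.16 to 8.89 on the CHO-free diet. The sodium channel subunits Scnn1a (-0.40), Scnn1b (-0.13) and Scnn1g (-0.27) were not called. Whether collecting duct cells were more numerous or held more of these transcripts was not measured. Proximal tubule markers had 1 call of 12 and markers of the thick ascending limb, distal convoluted tubule and podocytes had 0 of 8, 0 of 6 and 0 of 6.

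**Figure D4:**
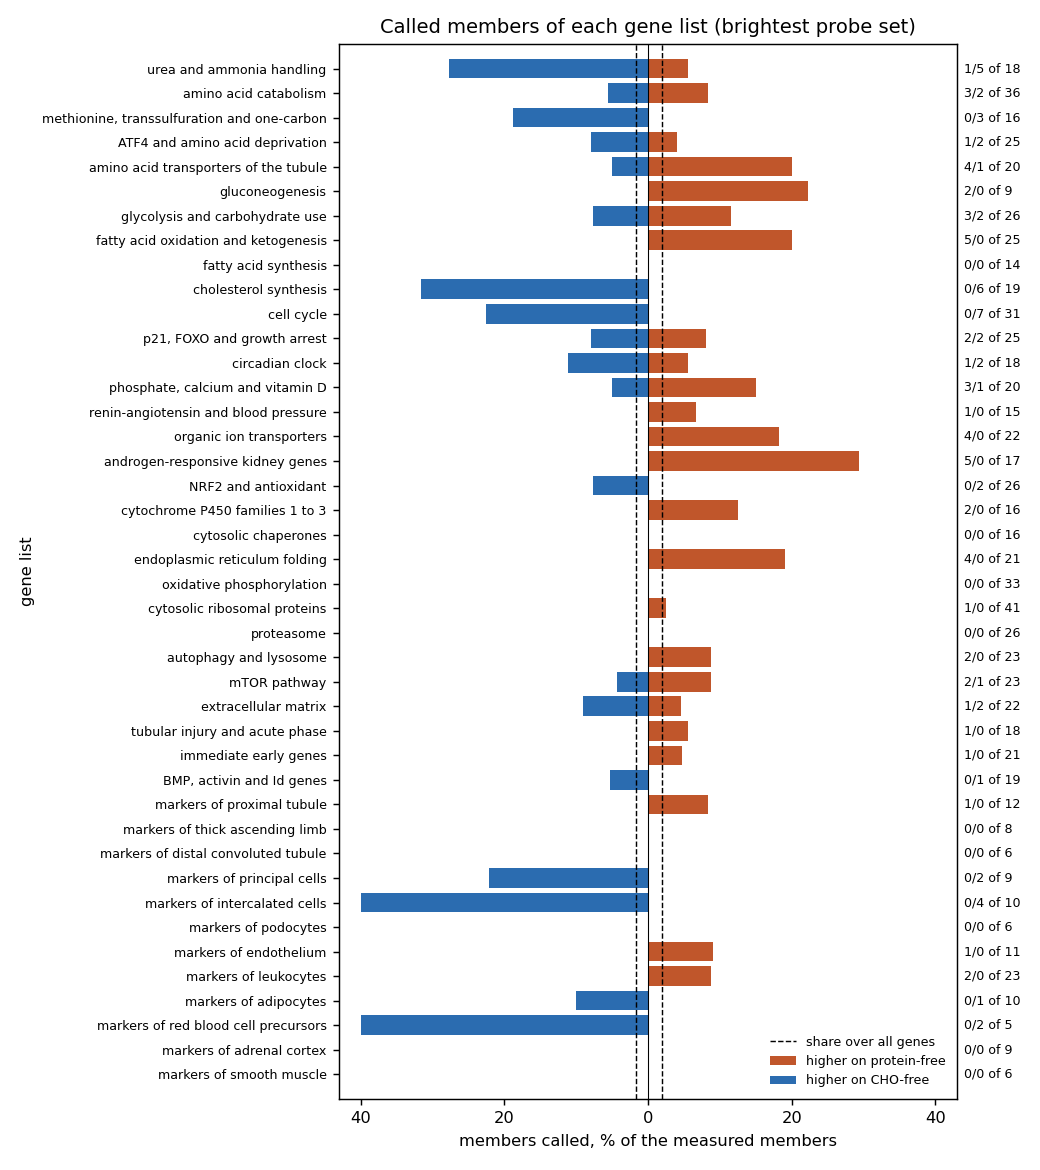
Bars give the share of measured members called in each gene list (x axis, %), to the right for higher on the protein-free and to the left for higher on the CHO-free diet, with the counts beside. Dashed lines mark the shares over all genes, 1.92% and 1.70%, and cholesterol synthesis, cell cycle and intercalated cell markers have calls on the CHO-free side only.

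Markers of other cells also differed. Of 23 leukocyte markers 2 were called, Cd52 (0.71) and Tyrobp (0.60), both higher on the protein-free diet, and 22 had a difference above 0, with a median of 0.25. Their mean signal was 5.67 to 6.09 on the protein-free, 5.56 to 5.66 on the CHO-free and 5.75 to 6.25 on the Control diet, and 0 were called with the Gapdh covariate (Cd52 0.64, Tyrobp 0.58) or without TS34 and TS35 (0.57 and 0.52). Their part in the differences of other genes was not tested. Of 5 red cell precursor markers 2 were called, both lower on the protein-free diet, the heme enzyme Alas2 (-0.98) and the mitochondrial iron carrier Slc25a37 (-0.59, a call lost with the Gapdh covariate, at -0.41, and without TS34 and TS35, at -0.42), and the globin Hba-a1 had -0.58 (adjusted p = 0.0927). Their mean was 7.26 to 7.58 on the protein-free, 7.76 to 7.95 on the CHO-free and 7.78 to 7.99 on the Control diet. Endothelium had 1 call of 11, the receptor Tek (0.62), and markers of smooth muscle and adrenal cortex had 0 of 6 and 0 of 9.

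Of 21 genes of folding in the endoplasmic reticulum 4 were higher on the protein-free diet and 0 on the CHO-free diet, with a median of 0.18. The chaperone Hspa5 lay at 10.55 to 10.99 against 9.72 to 10.32 (0.72, SE 0.14, adjusted p = 0.00203) and the factor Xbp1 at 11.26 to 11.78 against 10.40 to 10.98 (0.82, SE 0.12, adjusted p = 8.89e-05). Manf (0.85) and Dnajb9 (0.64) lost their calls with the Gapdh covariate (0.60 and 0.46) and without TS34 and TS35 (0.65 and 0.39). Of 18 injury genes 1 was called (5.56%, against 3.62% of all genes), ceruloplasmin (Cp), the copper carrier that also rises in the acute phase. It was 2.67-fold higher on the protein-free diet, at 7.56 to 8.56 against 6.16 to 7.03.

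The glutathione transferases Gsta2 (-1.08, SE 0.12, adjusted p = 1.35e-06) and Gstm1 (-0.64) were the 2 of 26 antioxidant genes called, both higher on the CHO-free diet. Gsta2 lay at 10.83 to 11.04 on the protein-free, 11.75 to 12.30 on the CHO-free and 10.07 to 10.72 on the Control diet. Follistatin (Fst), which binds activin, was the 1 of 19 BMP and activin genes called (-1.19), 5.26% of the list against 3.62% of all genes. Collagens Col3a1 (-0.96) and Col6a1 (-0.84) with the crosslinking enzyme Lox (0.66) were the 3 of 22 matrix genes called. Lox had 2 further, dimmer probe sets at -0.06 and 0.12. Without TS34 and TS35 the calls of Gstm1 (-0.60), Col6a1 (-0.76) and Lox (0.64) ended. The angiotensin receptor Agtr1a was the 1 of 15 blood pressure genes called (0.68, SE 0.09, adjusted p = 1.9e-05), which is 6.67% of that list.

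Several large lists held few calls. Oxidative phosphorylation had 0 of 33 (median -0.17), the proteasome 0 of 26 (median 0.06), cytosolic chaperones 0 of 16 (median 0.03) and cytosolic ribosomal proteins 1 of 41 (Rps9, 0.73, median 0.17), which is 2.44% of the list against 3.62% of all genes. Autophagy and lysosome had 2 of 23, the proteases Lgmn (0.67) and Ctsz (0.63). Of 23 mTOR pathway genes 2 were higher on the protein-free diet (Sesn2 and Deptor, 0.70) and 1 on the CHO-free diet (Ddit4). The calls of Rps9 (0.45), Lgmn (0.48), Ctsz (0.49) and Deptor (0.56) ended with the Gapdh covariate, each falling under the fold minimum. They also ended without TS34 and TS35, at 0.43, 0.48, 0.57 and 0.52. Atp5g1 of oxidative phosphorylation was called in both settings (-0.73 and -0.64).

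Of the named genes, 47 have another probe set on the array, 71 probe sets in all. Of these 29 were called in the same direction as the named one, 0 in the other, and the rest were not called. The sign was opposite, without a call, in 8: Slc7a13 (-0.76), Cyp7b1 (-0.10), Deptor (-0.13), Lox (-0.06), Rora (-0.12), Msmo1 (0.11), Slc20a1 (0.08) and Slc4a1 (0.05), most of them dim.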

How the data were processed

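RNA of whole kidneys was hybridized to Affymetrix HT MG-430 PM arrays, 1 per mouse. The deposited values are log2 signals that the authors made by RMA (background correction, quantile normalization and probe summary), run apart for the fasting cohort and for the other animals, and outlier arrays were left out after normalization. No software version was given for this step in the sources at hand. The 27 arrays of the other animals were fitted here with limma 3.58.1 (lmFit and eBayes, R 4.3.3), with the diets as groups and the contrast protein-free minus CHO-free. P-values were adjusted by Benjamini-Hochberg over 45141 probe sets, and calls needed an adjusted p under 0.05 and 1.5-fold. Of these probe sets, 28898 carry 1 gene symbol, 551 several and 15692 none. The number of arrays limits the precision, with a median SE of 0.16 among DEPS.

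Named genes were the 15 with the largest differences in each direction among DEPS without overlap between diets, and up to 5 called members of each list, by the brightest probe set, with textbook members that did not pass. The members and lists were chosen with earlier results of these data known. Alternatives covered the prior, normalization, centring, a filter, the fold minimum, array weights, the arrays fitted, the Gapdh and adipocyte covariates and left-out mice. The test was tested on simulated data. Promoters are from RefSeq, GRCm38, and motifs were searched on both strands. Figures were drawn with matplotlib 3.10.9.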

Additional observations from a re-analysis of the deposited data

Results flagged for a closer look

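In 6 of 226 groups of 5 arrays for the named genes, 1 mouse lay far from the other 4 by Dixon's criterion, which chance meets in about 1 of 20 groups. CHO-free mouse TS32 was the one in 3 of them, highest for Txnip (10.07) and lowest for Bcl7c (7.17) and Ciart (3.95). In the protein-free group TS54 was lowest for Slc16a6 (6.03) and TS52 lowest for Nsdhl (7.52). CHO-free mouse TS36 was highest for 2810408I11Rik (5.77).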

How the results depend on the processing

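Counts of DEPS were 846 to 1156 under 8 alternatives (prior, quantile normalization, median subtraction, signal filter, array weights, the 10 arrays alone, and the Gapdh and adipocyte covariates). The 10 arrays alone gave 931, 478 higher on the protein-free and 453 on the CHO-free diet. Without a fold minimum 3262 probe sets were called, 1605 higher on the protein-free and 1657 on the CHO-free diet. Without TS34 and TS35 there were 758, with 345 and 413. Leaving out each mouse gave 829 to 1745 in all, 413 to 1036 higher on the protein-free and 416 to 709 higher on the CHO-free diet, the highest of each without TS32 and the lowest without TS34. Over the named genes and alternatives, 2086 values kept the call and its direction, 172 kept the direction without the call and 0 reversed. No paired analysis was possible because each mouse has its own number and the diets share none. Cages are not known, and the causes of these shifts were not tested.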
